A study of Mus musculus with 24 samples.

Results

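MycER RA was compared with MycER WT after 8 h of OHT in 3T9 cells, an immortalised line of mouse fibroblasts. MycER is Myc, a transcription factor, fused to the part of the oestrogen receptor that binds hormone, so that OHT (4-hydroxytamoxifen) switches it on. RA is a mutant form of Myc, and no source used here gives the residues it changes. The 6 libraries compared, of 24 in the study, were those the labels put in either group: 3 from cells that carry the BP-MycER-RA construct and 3 from cells that carry BP-MycER-WT, all kept in OHT for 8 h. Cells with an empty vector (EV) and the same 8 h of OHT, 3 libraries, are given only as a level, with no test. The same 2 MycER forms after 4 h of OHT, 3 libraries each, served to ask where the difference at 8 h departs from that at 4 h. All of these groups are infected populations of a single cell line with their own Myc gene present, and without libraries kept off OHT, an effect of active MycER and a difference between the populations from before OHT cannot be told apart. The remaining libraries of the 24 were EV at 4 h and MycER HEA, another form of MycER, at 4 h and 8 h. They were not compared, but entered the choice of genes to test and the shared estimate of spread between libraries. The series title names the question, which is how Myc uses DNA contacts that depend on the sequence, and those that do not, to regulate genes.

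Myc binds DNA as a pair with Max, and the pair prefers the E-box, a short motif with the letters CACGTG. In fibroblasts and many other cells Myc is known for raising genes that build ribosomes, make nucleotides and drive cell growth. It is also known for lowering genes that hold back the cell cycle, and the Mxd proteins, Mxi1, Mnt and Mga compete with Myc for Max or for the same sites.

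Levels below are RPKM, that is, reads scaled by the length of the gene and by the total of the library, with 3 libraries in each group. A gene was tested where it had at least 1 RPKM in at least 3 of the 24 libraries, which left 12268 of 21671 genes. A log2 fold change is RA over WT on the scale of log2(RPKM + 0.5), given with its standard error, and a gene counts as changed where its adjusted p (limma, Benjamini-Hochberg over all genes tested) is under 0.05. The libraries held 10.9 to 11.8 M reads in RA, 10.1 to 11.3 M in WT and 11.1 to 12.5 M in EV. WT replicate 3 stood apart from its group: reads per gene differed from those of WT replicates 1 and 2 with a chi-square per degree of freedom of 17.8 and 15.7 (genes of at least 50 reads), against 2.88 between these other WT libraries and 2.70 to 5.79 among the RA libraries. Esr1, which encodes the oestrogen receptor joined to Myc in both constructs, had 10.5, 11.4 and 11.5 RPKM in RA, 11.0, 9.04 and 13.7 RPKM in WT and 0.0990 to 0.291 RPKM in EV. RA and WT overlapped in Esr1 (log2 fold change 0.01 ± 0.14, adjusted p = 0.970), and every library with a construct lay far above every EV library.

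Of the genes tested, 5122 (41.8%) differed between RA and WT at 8 h. In RA 2125 genes (17.3%) were lower and 2997 (24.4%) were higher, and these shares are the background for the counts that follow. Of the genes lower in RA 56.4%, and of those higher in RA 43.1%, had a log2 fold change under 0.5 in size. At least 2-fold lower in RA were 247 genes (2.01%), and at least 2-fold higher were 387 (3.15%). With quantile normalisation these counts were 317 lower and 237 higher, so which direction held more 2-fold changes depended on the scaling. All 3 RA libraries lay below all 3 WT libraries in 2764 genes (22.5%) and above them in 3753 (30.6%). When the genes were ranked by level into 3 equal groups, in the lowest group, up to 9.32 RPKM, 451 were lower and 1199 higher in RA, whereas in the highest group, from 26.8 to 192 RPKM, 940 were lower and 686 higher. The share of higher genes among the changed ones was 58.5%, 51.1% where each library was centred on its median and 52.1% with quantile normalisation. The median gene had a log2 fold change of 0.04. RPKM is relative to the library total, so a change of total RNA per cell would not show in these values, and in bulk RNA fewer cells of a type and less RNA per cell cannot be told apart.

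**Figure D1:**
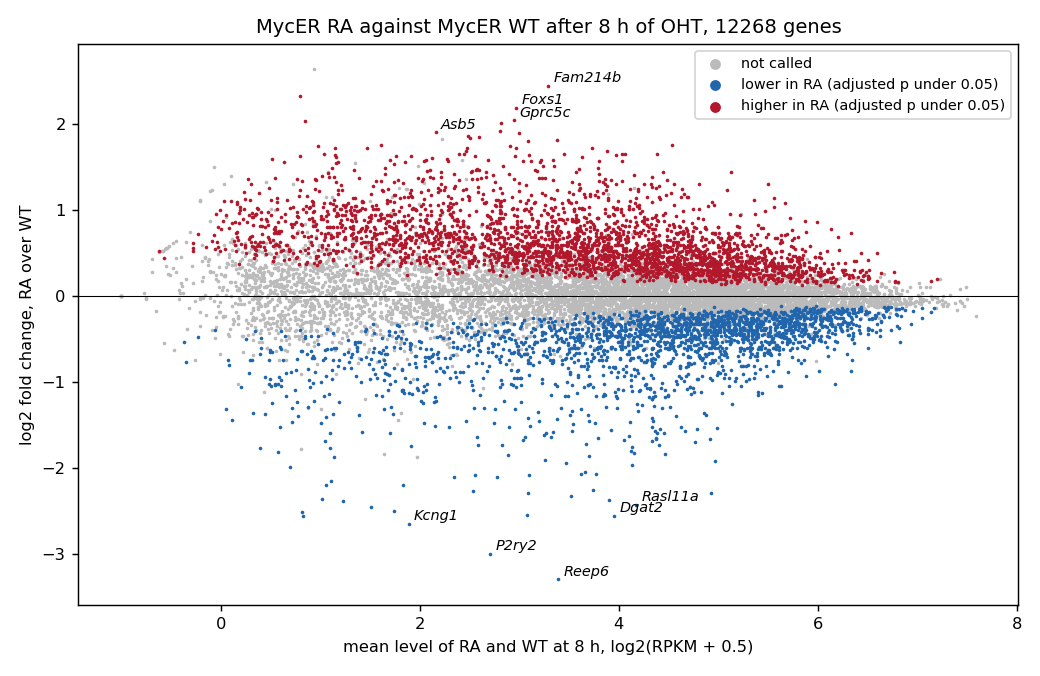
Each point is 1 of the 12268 genes tested, with its mean level in RA and WT at 8 h on the x axis (log2(RPKM + 0.5)) and its log2 fold change of RA over WT on the y axis. Blue marks the 2125 genes lower in RA, red the 2997 genes higher in RA, and grey the rest. Reep6 is the lowest point at -3.30, and Fam214b is labelled at 2.45.

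Under the rule for named genes, the 12 largest falls in RA were in genes with a higher mean in WT than in EV. The rule favours genes with high WT values, so this order is in part built in, and EV was not tested. Reep6, a membrane protein of the endoplasmic reticulum, had 0.782, 1.81 and 1.78 RPKM in RA, against 23.1, 14.2 and 18.2 RPKM in WT and 2.38 to 2.88 RPKM in EV. The RA libraries lay below all WT libraries and below all EV libraries, and the log2 fold change was -3.30 ± 0.24 (adjusted p = 3.22e-09). P2ry2, a receptor for extracellular nucleotides, had 0.755, 1.14 and 0.965 RPKM in RA, against 11.7, 11.3 and 10.3 RPKM in WT and 0.712 to 1.14 RPKM in EV. RA stayed within the range of EV in this gene, and the fall was -3.00 ± 0.14 (adjusted p = 1.77e-11). Dgat2, which makes triglycerides, had 3.66, 4.67 and 3.61 RPKM in RA, against 25.2, 25.2 and 27.1 RPKM in WT and 3.74 to 4.38 RPKM in EV, a fall of -2.56 ± 0.13 (adjusted p = 2.46e-11). Its RA and EV libraries covered about the same range.

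Rasl11a, a Ras-like small GTPase linked to ribosomal RNA synthesis, had 7.16, 4.00 and 4.51 RPKM in RA, against 34.7, 31.3 and 23.7 RPKM in WT and 5.56 to 8.78 RPKM in EV. Dyrk3, a protein kinase, had 2.79, 5.21 and 5.22 RPKM in RA, against 29.4, 22.8 and 21.3 RPKM in WT and 10.5 to 12.3 RPKM in EV. In Dyrk3 the 3 groups did not overlap and RA was the lowest of them, with a log2 fold change of -2.38 ± 0.20 against WT (adjusted p = 2.23e-08). The other 7 of the 12 largest falls were Kcng1 (a subunit of potassium channels, -2.65), Cited1 (a transcriptional co-regulator, -2.55), Ankrd6 (a component of Wnt signalling, -2.50), Dusp9 (a MAP kinase phosphatase, -2.46), Car12 (a carbonic anhydrase, -2.39), Slc38a3 (a glutamine carrier, -2.37) and Rgcc (a regulator of the cell cycle, -2.33). Slc38a3 averaged 4.67 reads per library in RA and 96.0 in WT. Car12 averaged 11.7 reads in RA and 161 in WT. Their log2 fold changes depend on the pseudocount and were -4.24 (Slc38a3) and -3.77 (Car12) with voom on the recovered reads. In Slc38a3, Car12 and Ankrd6 no RA or EV library at 8 h reached 1 RPKM, while all 3 WT libraries did. Of these 3 groups, only WT met the level of the filter in these genes.

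By the same rule, the 12 largest rises in RA were in genes with a lower mean in WT than in EV. Here the rule favours low WT values. Fam214b had 15.5, 15.3 and 17.3 RPKM in RA, against 1.85, 2.63 and 3.28 RPKM in WT and 11.2 to 13.4 RPKM in EV, a log2 fold change of 2.45 ± 0.20 (adjusted p = 1.61e-08). Its RA libraries lay above those of both other groups. Foxs1, a forkhead transcription factor, had 11.9, 11.9 and 13.0 RPKM in RA, against 1.64, 3.31 and 2.19 RPKM in WT and 11.4 to 11.9 RPKM in EV (2.19 ± 0.16, adjusted p = 3.07e-09). Ypel5, of a gene family linked to cell division, had 15.7, 15.2 and 16.1 RPKM in RA, against 4.16, 4.58 and 3.57 RPKM in WT and 13.3 to 14.2 RPKM in EV (1.82 ± 0.15, adjusted p = 1.45e-08). Its relative Ypel3 had a log2 fold change of 1.92 ± 0.25. Among the other rises were Gprc5c (an orphan G protein-coupled receptor, 2.05), Asb5 (a subunit of ubiquitin ligases, 1.91), Mmp28 (a matrix metalloproteinase, 1.90), Ntn4 (a netrin of basement membranes, 1.87), Gja4 (a connexin, 1.85) and Adamts4 (a secreted protease of the matrix, 1.76). Serpina3h (2.02) belongs to a cluster of protease inhibitor genes of closely similar sequence, so its reads may be shared with other members. In Gprc5c, Serpina3h, Mmp28, Ntn4, Gja4 and Ypel5, as in Fam214b, every RA library was above every EV library. Gprc5c had 11.0 to 13.2 RPKM in RA and 6.49 to 7.50 RPKM in EV.

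**Figure D2:**
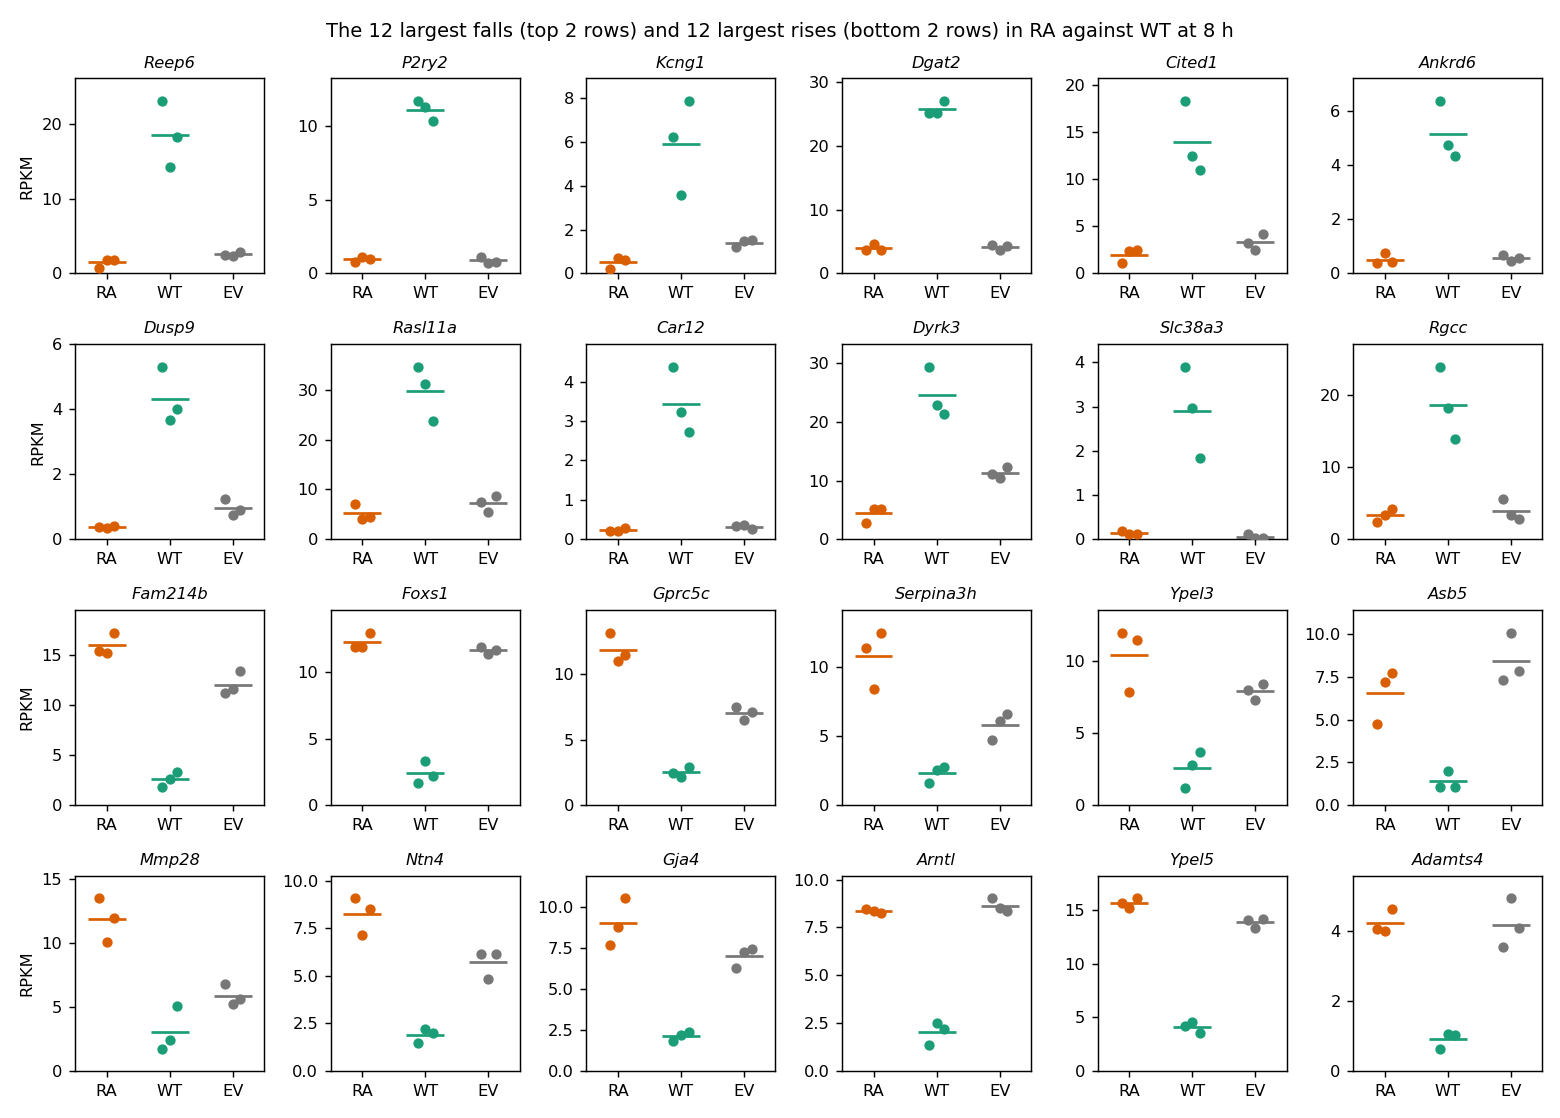
Each panel shows 1 gene, with a point for each of the 3 libraries of RA, WT and EV at 8 h and a bar at the group mean, in RPKM on an axis from 0. In all 24 genes the RA libraries lie to 1 side of the WT libraries, and in the 12 falls WT is the highest group.

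Sequences around the start sites of 6 of the genes are shown because the E-box is the motif Myc and Max are known to prefer and the genes moved in either direction. These 6 were picked among named genes with CACGTG in a window, so its presence in them is not a result. Among the 12 largest falls P2ry2 held it, while the windows at hand for Dyrk3, Cited1, Ankrd6, Rasl11a, Car12 and Rgcc did not. The sequences are RefSeq promoter windows of GRCm38.p6, 250 bases before to 50 after the start, on the gene's own strand, 5′ to 3′, and the capitals mark CACGTG, which reads the same on both strands. The deposited values are of build mm9, so the windows were joined to them by gene name alone. P2ry2 (chr7:101012004-101012303, minus strand), Dusp2 (chr2:127335909-127336208, plus strand), Timm9 (chr12:71136626-71136925, minus strand) and Max (chr12:76962199-76962498, minus strand) were lower in RA. Fam214b (chr4:43046171-43046470, minus strand) and Mxd4 (chr5:34187661-34187960, minus strand) were higher in RA.
P2ry2: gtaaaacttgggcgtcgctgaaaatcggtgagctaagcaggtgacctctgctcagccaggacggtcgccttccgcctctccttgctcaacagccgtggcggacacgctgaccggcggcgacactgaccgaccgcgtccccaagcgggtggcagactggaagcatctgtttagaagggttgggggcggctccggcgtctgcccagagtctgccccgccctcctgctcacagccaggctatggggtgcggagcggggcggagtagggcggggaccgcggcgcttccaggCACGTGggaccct
Dusp2: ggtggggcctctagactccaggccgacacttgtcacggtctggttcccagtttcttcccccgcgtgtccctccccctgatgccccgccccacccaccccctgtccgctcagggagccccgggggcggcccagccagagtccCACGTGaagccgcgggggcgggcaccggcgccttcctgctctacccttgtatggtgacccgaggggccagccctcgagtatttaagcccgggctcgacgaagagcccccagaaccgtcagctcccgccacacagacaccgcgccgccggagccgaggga
Timm9: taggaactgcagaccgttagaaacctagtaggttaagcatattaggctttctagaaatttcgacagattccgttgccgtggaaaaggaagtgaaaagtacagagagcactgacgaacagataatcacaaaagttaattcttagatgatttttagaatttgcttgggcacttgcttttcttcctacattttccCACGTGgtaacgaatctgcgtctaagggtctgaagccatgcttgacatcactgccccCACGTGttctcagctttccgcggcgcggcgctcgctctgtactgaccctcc
Max: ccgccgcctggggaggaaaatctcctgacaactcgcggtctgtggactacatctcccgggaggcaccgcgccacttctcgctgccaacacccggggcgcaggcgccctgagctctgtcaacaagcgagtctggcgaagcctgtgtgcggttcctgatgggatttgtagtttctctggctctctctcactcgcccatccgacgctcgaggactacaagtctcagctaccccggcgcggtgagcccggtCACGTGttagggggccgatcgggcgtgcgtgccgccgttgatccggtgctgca
Fam214b: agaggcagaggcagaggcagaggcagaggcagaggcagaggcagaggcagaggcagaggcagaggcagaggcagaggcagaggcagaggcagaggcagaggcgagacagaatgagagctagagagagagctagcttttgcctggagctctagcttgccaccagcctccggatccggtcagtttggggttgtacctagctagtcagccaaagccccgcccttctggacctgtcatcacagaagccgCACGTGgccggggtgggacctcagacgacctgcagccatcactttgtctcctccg
Mxd4: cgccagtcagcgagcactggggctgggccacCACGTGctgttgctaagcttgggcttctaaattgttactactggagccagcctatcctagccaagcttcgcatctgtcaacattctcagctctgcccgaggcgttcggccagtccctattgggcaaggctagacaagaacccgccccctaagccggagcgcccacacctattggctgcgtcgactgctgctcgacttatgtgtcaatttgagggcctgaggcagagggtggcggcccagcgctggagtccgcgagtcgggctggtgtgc

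In the windows shown, the motif starts 3 bases before the start site in Max, which was lower in RA, and 5 bases before it in Fam214b, which was higher. Fam214b has a second window, for another start site, that holds no CACGTG. P2ry2 has 2 windows, and the motif lies after the start site in the one shown and before it in the other. Timm9 holds 2 copies, and in Mxd4 the motif is 219 bases upstream. Windows were at hand for 9516 of the 12268 genes tested (77.6%), which is under the 80% needed to compare sets of genes, so the shares only describe these windows. CACGTG was in 308 of 2114 windows (14.6%) of genes lower in RA, 257 of 3179 (8.08%) of genes higher in RA, and 640 of 6804 (9.41%) of the rest. It was in 1205 of 12097 windows (9.96%) of all genes tested, and in 7.15% of all 32851 windows of the table. Of windows of ribosome biogenesis genes 13 of 57 (22.8%) held it, of RNA polymerase I genes 2 of 23 (8.70%), of growth arrest genes 6 of 31 (19.4%) and of extracellular matrix genes 0 of 23. For nucleotide and one-carbon genes it was 7 of 33 (21.2%) and for mitochondrial biogenesis 6 of 34 (17.6%). For immediate early genes it was 4 of 24 (16.7%) and for interferon and inflammation 1 of 22 (4.55%). A match in these letters does not show that Myc binds there.

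Genes of the Myc/Max network were themselves split. Of 12 tested, 5 were lower in RA and 4 higher, and the median log2 fold change was -0.03, beside 0.04 over all genes. Max, Myc's partner, had 35.1, 37.0 and 37.1 RPKM in RA, against 61.8, 52.5 and 53.6 RPKM in WT and 36.7 to 42.9 RPKM in EV (-0.61 ± 0.089, adjusted p = 1.64e-05). Mxi1, a competitor of Myc for Max, had 7.57, 8.25 and 9.19 RPKM in RA, against 22.2, 18.8 and 16.9 RPKM in WT and 10.8 to 11.1 RPKM in EV (-1.16 ± 0.12, adjusted p = 1.72e-07). For both genes the RA and WT libraries did not overlap. Mlxip (-0.90), which pairs with the Max-like protein Mlx, and Mga (-0.35), which pairs with Max, were lower in RA too. Mnt, another competitor, was lower by -0.48 ± 0.18 (adjusted p = 0.0403), but not without RA replicate 1 (0.117), RA replicate 2 (0.0929) or WT replicate 3 (0.249), where its log2 fold change was -0.27.

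Mxd4, which binds Max in place of Myc, went the other way, with 32.4, 23.3 and 28.3 RPKM in RA, against 9.65, 11.4 and 12.8 RPKM in WT and 21.5 to 25.7 RPKM in EV (1.27 ± 0.15, adjusted p = 1.43e-06). Reads assigned to Myc were 58.1, 66.2 and 65.0 RPKM in RA, against 29.3, 40.0 and 47.1 RPKM in WT and 56.5 to 60.2 RPKM in EV. The Myc libraries of RA all lay above those of WT (0.72 ± 0.17, adjusted p = 0.00160), and no source used here says whether the construct adds reads to this gene. Mxd3 (0.45 ± 0.16, adjusted p = 0.0317) and Mycl (0.49 ± 0.16, adjusted p = 0.0172), the relative of Myc also called L-Myc, were higher with less certainty. Mxd3 did not pass without RA replicate 1 (0.132), WT replicate 1 (0.0843) or WT replicate 2 (0.127), and Mycl not without RA replicate 3 (0.0527) or WT replicate 3 (0.0564). With quantile normalisation 2 network genes were higher in place of 4.

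Genes that build ribosomes were lower in RA almost as a body. In ribosome biogenesis 56 of 62 genes tested were lower and 1 was higher, 90.3% lower beside 17.3% of all genes, with a median log2 fold change of -0.45. The summed level of the list was 2948, 2910 and 2915 RPKM in RA, against 4023, 3928 and 3976 RPKM in WT and 3138 to 3217 RPKM in EV. RA was thus the lowest group and its libraries overlapped with neither of the others. Rrp1b, a nucleolar protein, had 27.9, 27.3 and 27.1 RPKM in RA, against 55.7, 51.8 and 53.2 RPKM in WT and 30.4 to 32.0 RPKM in EV (-0.95 ± 0.060, adjusted p = 4.56e-10). Heatr1, needed to process ribosomal RNA, had 42.0, 42.2 and 41.0 RPKM in RA, against 65.3, 63.8 and 62.8 RPKM in WT and 45.0 to 48.0 RPKM in EV (-0.61 ± 0.047, adjusted p = 6.53e-09). Rrp9, which binds the U3 small nucleolar RNA, averaged 56.4 ± 3.7 RPKM in RA and 104 ± 6.2 RPKM in WT (SD, n = 3 each). Ddx52, an RNA helicase, was the exception at 0.27 ± 0.086 (adjusted p = 0.0168), a call lost without RA replicate 1 (0.0782) or WT replicate 3 (0.0985).

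The machinery that transcribes ribosomal RNA genes followed the same direction. Of 15 genes of RNA polymerase I and its factors 12 were lower in RA and 1 was higher (median -0.35), and their summed level was 517, 506 and 516 RPKM in RA, 711, 684 and 661 RPKM in WT and 539 to 562 RPKM in EV. Polr1b, a core subunit, had 33.0, 29.8 and 30.9 RPKM in RA, against 66.5, 63.1 and 66.0 RPKM in WT and 36.2 to 37.1 RPKM in EV (-1.05 ± 0.067, adjusted p = 5.48e-10). The subunit Polr1e fell by 1.12 and Taf1c, of the promoter selectivity factor, by 1.20 on the log2 scale. Taf1b, of the same factor, was higher (0.31 ± 0.12, adjusted p = 0.0446), a call lost under 9 of 15 other settings, among them without RA replicate 1 (0.113), RA replicate 2 (0.118), WT replicate 1 (0.0984) or WT replicate 3 (0.165). Of 21 genes of RNA polymerase III, which makes transfer RNA and other short RNAs, 8 were lower and 1 higher (median -0.17). Polr3g had 12.2, 13.9 and 11.4 RPKM in RA, against 39.3, 34.9 and 28.1 RPKM in WT and 20.1 to 20.7 RPKM in EV (-1.40 ± 0.16, adjusted p = 8.13e-07), so RA lay below EV as well as WT. The subunit Polr3e fell by 0.68. Maf1, the repressor of this polymerase, was the higher gene (0.29 ± 0.11, adjusted p = 0.0443), a call lost without RA replicate 1 (0.174), RA replicate 3 (0.101), WT replicate 2 (0.128) or WT replicate 3 (0.0918).

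The ribosome's own proteins and the translation factors differed less. Of 47 cytosolic ribosomal protein genes 7 were lower and 0 higher in RA (14.9% lower, under the background of 17.3%), with a median of -0.09, and 4 were lower without RA replicate 2. All 3 RA libraries lay below all 3 WT libraries in 24 of the 47 and above them in 0, beside 22.5% and 30.6% of all genes. Members such as Rpl12, with means of 169 RPKM in RA and 183 RPKM in WT, were near the highest mean level of 192 RPKM. The part of such a ceiling in these small differences was not tested. Rps19 averaged 47.7 ± 1.1 RPKM in RA and 59.6 ± 2.6 RPKM in WT (-0.32 ± 0.065, adjusted p = 6.10e-04), while Rpl13a and Rps13 fell by 0.20 and 0.17. Of 39 translation factors and tRNA synthetases 14 were lower and 2 higher (median -0.12). Farsa, which loads phenylalanine on its tRNA, averaged 33.3 ± 1.7 RPKM in RA and 44.6 ± 0.89 RPKM in WT, and Eef1d, of the elongation factor complex, 41.1 ± 1.1 and 55.3 ± 2.4 RPKM in the same groups. Both had a log2 fold change of -0.42, and the poly(A)-binding protein Pabpc1 one of -0.34. The 2 higher genes were the alanine and cysteine synthetases Aars (0.20 ± 0.069) and Cars (0.24 ± 0.088). Aars overlapped between the groups and was lost without any of RA replicates 1 and 3 or WT replicates 1 and 2 (adjusted p = 0.0529 to 0.121), and Cars without RA replicate 1 (0.120), WT replicate 1 (0.137) or WT replicate 2 (0.0928).

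Metabolic genes that feed growth were mostly lower in RA where they changed. Of 30 genes that make nucleotides or carry one-carbon units 20 were lower and 1 higher (median -0.28), and the summed level was 1416, 1366 and 1385 RPKM in RA, 1730, 1683 and 1668 RPKM in WT and 1435 to 1503 RPKM in EV. Slc19a1, the folate carrier, had 23.7, 27.8 and 26.1 RPKM in RA, against 59.4, 54.1 and 59.7 RPKM in WT and 30.7 to 33.6 RPKM in EV (-1.15 ± 0.080, adjusted p = 1.73e-09). Mthfd1l, of mitochondrial one-carbon metabolism, and Pfas, of purine synthesis, fell by 0.57 and 0.42, whereas Ctps2, a CTP synthase, was higher by 0.52 ± 0.12 (adjusted p = 0.00194). Of 11 polyamine genes 5 were lower (45.5%) and 2 higher (18.2%), with a median of -0.03. The higher share was under the background of 24.4%. Srm, which makes spermidine, averaged 81.8 ± 3.0 RPKM in RA and 114 ± 9.8 RPKM in WT (-0.47 ± 0.075), and Mat2a, which makes the methyl donor S-adenosylmethionine, fell by 0.44. The 2 higher polyamine genes are known to limit polyamines: Smox oxidises spermine (1.06 ± 0.15) and Oaz2 is an antizyme of ornithine decarboxylase (0.62 ± 0.11). Smox was low, with 2.07 to 3.74 RPKM in RA and 0.964 to 1.11 RPKM in WT.

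Of 21 genes of glycolysis and lactate transport 7 were lower and 2 higher in RA (median -0.10). The lactate carrier Slc16a1 had 41.9, 43.8 and 42.8 RPKM in RA, against 75.1, 72.7 and 69.9 RPKM in WT and 51.1 to 53.1 RPKM in EV (-0.75 ± 0.063, adjusted p = 2.03e-08). Pfkfb3, which sets the pace of glycolysis, fell by 1.17, while the enolase Eno2 was higher by 0.96 ± 0.13. Ldhb, a lactate dehydrogenase subunit, was higher by 0.25 ± 0.091, a call lost without RA replicate 1 (adjusted p = 0.119), WT replicate 1 (0.123) or WT replicate 2 (0.113). In mitochondrial biogenesis 20 of 36 genes were lower and 0 higher (median -0.20). Ppargc1b, a coactivator that drives mitochondrial genes, averaged 0.142 ± 0.072 RPKM in RA and 2.11 ± 0.82 RPKM in WT, with a mean of 6 reads per library in RA and 86.0 in WT. Its log2 fold change of -1.99 ± 0.19 was -3.83 with voom. No RA or EV library at 8 h reached 1 RPKM in Ppargc1b, while all 3 WT libraries did. Timm9, a chaperone of the mitochondrial intermembrane space whose promoter window is shown above, had 14.2, 15.1 and 13.7 RPKM in RA, against 22.4, 23.5 and 21.5 RPKM in WT and 14.0 to 16.9 RPKM in EV (-0.63 ± 0.087, adjusted p = 8.07e-06). Tfb2m, a mitochondrial transcription factor, fell by 0.82. Of 25 cytosolic chaperones 9 were lower and 1 higher (median -0.14), with Dnajc2, a chaperone at the ribosome, at -0.70, Fkbp4 at -0.38 and Hsph1 at -0.40. Dnajb1, a heat shock protein, was higher by 0.30 ± 0.082 (adjusted p = 0.00516).

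**Figure D3:**
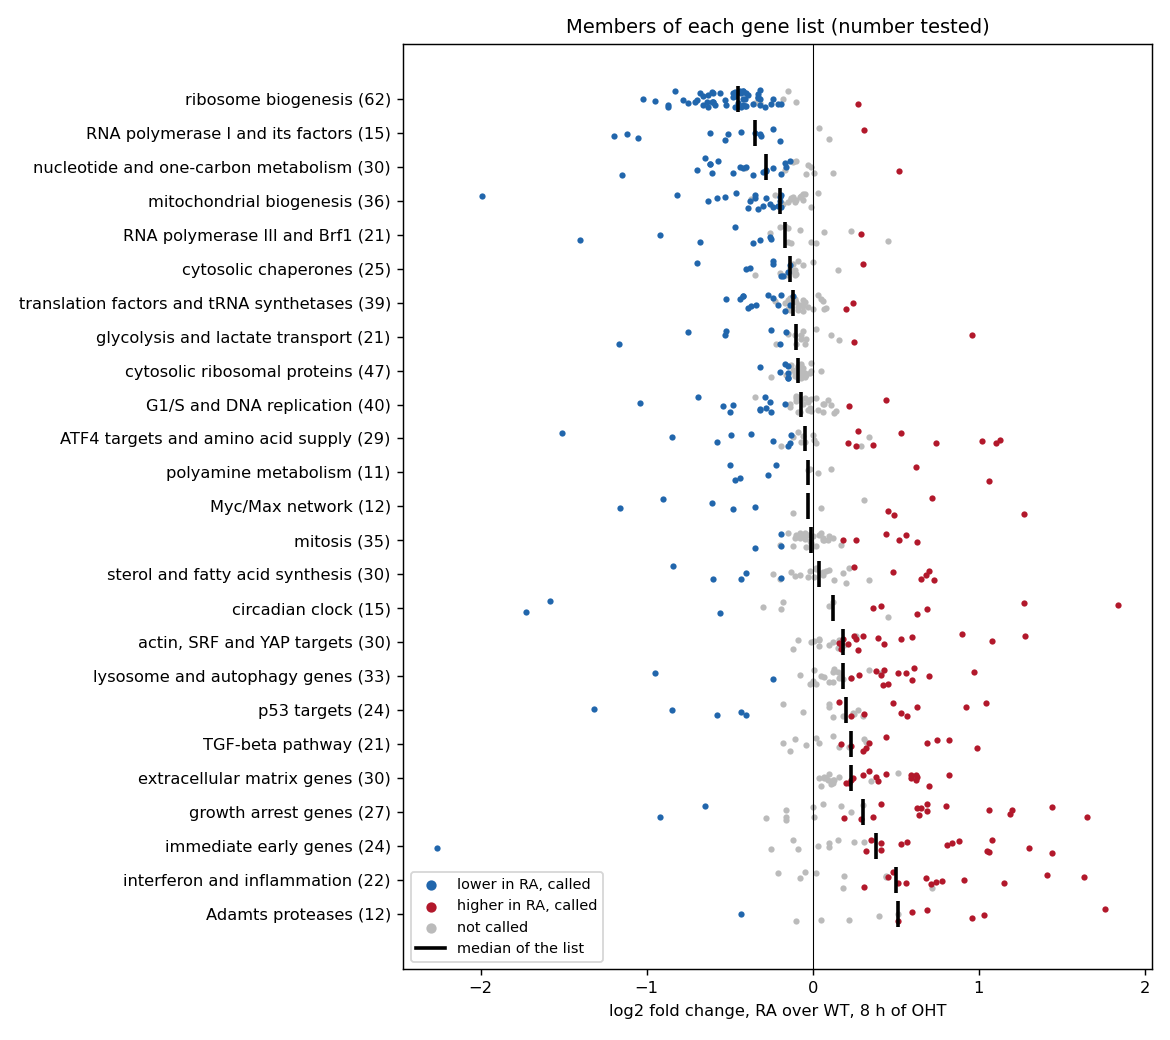
Each row is a gene list with the number of its members tested, and each point is 1 member at its log2 fold change of RA over WT after 8 h of OHT. Blue points were lower and red points higher in RA at an adjusted p under 0.05, grey points were not called, and the black bar is the list's median, from -0.45 in ribosome biogenesis to 0.51 in the Adamts proteases.

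Among 40 genes of G1/S and DNA replication 12 were lower in RA and 2 higher (median -0.07). Cdc25a, a phosphatase that starts S phase, had 27.9, 28.7 and 28.2 RPKM in RA, against 40.3, 39.7 and 38.6 RPKM in WT and 30.3 to 32.9 RPKM in EV (-0.48 ± 0.057, adjusted p = 1.54e-06). The transcription factor E2f2 and the kinase Cdk6 fell by 1.04 and 0.50. Gins2, of the replicative helicase, was higher by 0.44 ± 0.10. Cdk2 was higher by 0.22 ± 0.067, a call lost without WT replicate 3 (adjusted p = 0.0562). Among 35 mitosis genes 3 were lower and 6 higher (8.57% and 17.1%, both under the background). Ccnb2, a mitotic cyclin, averaged 40.8 ± 2.4 RPKM in RA and 27.4 ± 0.33 RPKM in WT (0.56 ± 0.098, adjusted p = 1.15e-04), and Cdc25c and Cdca3 were higher by 0.52 and 0.44. The mitotic kinase Cdk1 fell by 0.19 ± 0.042 (adjusted p = 0.00107). Incenp, of the chromosomal passenger complex, fell by 0.35 ± 0.11, a call lost without RA replicate 2 (0.0519) or WT replicate 3 (0.0856), and 1 mitosis gene was lower without RA replicate 2.

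Growth arrest genes that changed were mostly higher in RA. Of 27 tested 15 were higher and 2 lower, 55.6% higher beside 24.4% of all genes, with a median of 0.30. Ccng2, a cyclin linked to cell cycle exit, had 22.9, 26.1 and 25.5 RPKM in RA, against 7.24, 8.89 and 6.70 RPKM in WT and 30.9 to 35.4 RPKM in EV (1.65 ± 0.16, adjusted p = 9.49e-08). RA was between WT and EV in this gene and overlapped with neither. Gadd45a, induced by stress and DNA damage, had 36.2, 37.0 and 47.0 RPKM in RA, against 23.1, 22.3 and 22.6 RPKM in WT and 47.0 to 52.0 RPKM in EV (0.80 ± 0.087, adjusted p = 5.32e-07). Ndrg4 was higher by 1.20 ± 0.12. The 2 lower members are transcription factors: Klf9 averaged 11.5 ± 0.24 RPKM in RA and 22.4 ± 3.1 RPKM in WT (-0.92 ± 0.12), and Cebpa 1.83 ± 0.088 and 3.19 ± 0.41 RPKM in the same groups (-0.65 ± 0.18).

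Targets of p53 moved both ways, with 5 lower (20.8%) and 9 higher (37.5%) of 24. The lower share was near the 17.3% of all genes, and the higher share above the 24.4% of all genes. The gene listed as 9630033F20Rik, whose RefSeq name is Tigar and whose product limits glycolysis, had 6.85, 6.65 and 6.07 RPKM in RA, against 18.8, 16.5 and 15.7 RPKM in WT and 9.70 to 10.2 RPKM in EV (-1.32 ± 0.13, adjusted p = 1.85e-07). Aen, a nuclease of apoptosis, fell by 0.58 ± 0.074, while Sesn2, a stress sensor that restrains mTORC1, was higher by 0.92 ± 0.15. Genes of ATF4 and amino acid supply were split evenly, 9 lower and 9 higher of 29. The glutamine carrier Slc1a5 averaged 30.0 ± 1.4 RPKM in RA and 54.4 ± 2.9 RPKM in WT (-0.85 ± 0.083), whereas Chac1, which breaks down glutathione, averaged 41.3 ± 5.6 RPKM in RA and 18.8 ± 0.68 RPKM in WT (1.10 ± 0.095). Nupr1, a stress-induced nuclear protein, was higher by 0.74 ± 0.058. In sterol and fatty acid synthesis 5 of 30 were lower and 6 higher, both shares under the background. Dhcr7, the last enzyme of cholesterol synthesis, fell by 0.84 ± 0.11 and Acaca, which starts fatty acid synthesis, by 0.43 ± 0.057, while Hsd17b7 was higher by 0.73 ± 0.10. Of 33 lysosome and autophagy genes 13 were higher and 2 lower (median 0.18). The proton pump subunit Atp6v0d1 averaged 42.2 ± 1.4 RPKM in RA and 25.7 ± 0.82 RPKM in WT (0.70 ± 0.084), and Map1lc3a, which coats autophagosomes, was higher by 0.61. Gusb, a lysosomal glucuronidase, fell by 0.95 ± 0.088, and Gabarapl1 by 0.24 ± 0.075, a call lost without RA replicate 2 (adjusted p = 0.0523) or WT replicate 1 (0.0705).

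Genes of matrix, cytoskeleton and signals from outside the cell were mostly higher in RA where they changed. Of 30 extracellular matrix genes 16 were higher and 0 lower (53.3%, median 0.23), with Col8a1 at 30.5 ± 1.6 RPKM in RA and 17.2 ± 2.7 RPKM in WT (0.82 ± 0.10, adjusted p = 3.32e-06). Loxl2, which crosslinks collagen, was higher by 0.63 and Col6a1 by 0.38. The summed level of the list was 2021, 1959 and 2000 RPKM in RA, against 1614, 1683 and 1897 RPKM in WT and 1857 to 1880 RPKM in EV, so WT replicate 3 lay above every EV library and nearer to RA than the other WT libraries did. Of 12 Adamts proteases 6 were higher and 1 lower. Adamts5 averaged 39.2 ± 1.6 RPKM in RA and 25.8 ± 2.9 RPKM in WT (0.60 ± 0.10), and Adamts7 was higher by 1.03. Adamts9 fell by 0.43 ± 0.14, a call lost without RA replicate 3 (adjusted p = 0.102) or WT replicate 1 (0.0682). Of 30 actin genes and targets of SRF and YAP 16 were higher and 0 lower (median 0.18). Tgfb1i1, a focal adhesion protein, had 19.0, 21.3 and 20.3 RPKM in RA, against 5.80, 8.14 and 10.8 RPKM in WT and 18.5 to 21.6 RPKM in EV (1.28 ± 0.22, adjusted p = 7.77e-05). The smooth muscle actin Actg2 was higher by 1.08 and the YAP kinase Lats2 by 0.43.

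Of 24 immediate early genes, which respond within minutes to growth signals, 14 were higher and 1 lower (median 0.38). The summed level was 679, 639 and 687 RPKM in RA, against 438, 504 and 567 RPKM in WT and 640 to 663 RPKM in EV. The count of higher genes was 9 without RA replicate 1 and 8 without WT replicate 1, the library with the lowest sum. Dusp1, a MAP kinase phosphatase, had 66.9, 68.6 and 70.5 RPKM in RA, against 26.9, 38.3 and 32.1 RPKM in WT and 58.1 to 60.8 RPKM in EV (1.08 ± 0.14, adjusted p = 3.41e-06). Btg2, an antiproliferative factor, was higher by 1.44 ± 0.19. Dusp2, another phosphatase of the family, was the lower gene, with 3.57, 4.61 and 4.18 RPKM in RA, against 24.1, 20.0 and 20.6 RPKM in WT and 4.30 to 5.32 RPKM in EV (-2.26 ± 0.15, adjusted p = 6.25e-10). Its promoter window, shown above, holds the E-box 109 bases before the start site.

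In the interferon and inflammation list 13 of 22 were higher and 0 lower (59.1%, median 0.50), with a summed level of 464, 495 and 474 RPKM in RA, 316, 355 and 291 RPKM in WT and 407 to 413 RPKM in EV. RA lay above EV and WT below it, with no overlap. Ddx58, a sensor of viral RNA, had 9.07, 8.27 and 7.69 RPKM in RA, against 2.09, 2.60 and 2.42 RPKM in WT and 5.28 to 5.96 RPKM in EV (1.63 ± 0.11, adjusted p = 1.57e-09). Irf1, an interferon-induced transcription factor, and the chemokine Cxcl12 were higher by 0.78 and 0.74. Of 21 genes of the TGF-beta pathway 10 were higher and 0 lower (median 0.23), or 6 with median centring, 6 with only the groups compared in the fit, and 5 without WT replicate 1. The receptor Tgfbr2 had 70.5, 74.3 and 75.0 RPKM in RA, against 39.8, 47.5 and 43.4 RPKM in WT and 62.9 to 66.3 RPKM in EV (0.75 ± 0.067, adjusted p = 4.50e-08). The ligand Bmp4 had 60.9, 58.6 and 56.4 RPKM in RA, against 26.6, 31.7 and 29.3 RPKM in WT and 37.3 to 41.3 RPKM in EV (0.99 ± 0.097, adjusted p = 1.26e-07). In both genes RA was above EV and EV above WT.

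**Figure D4:**
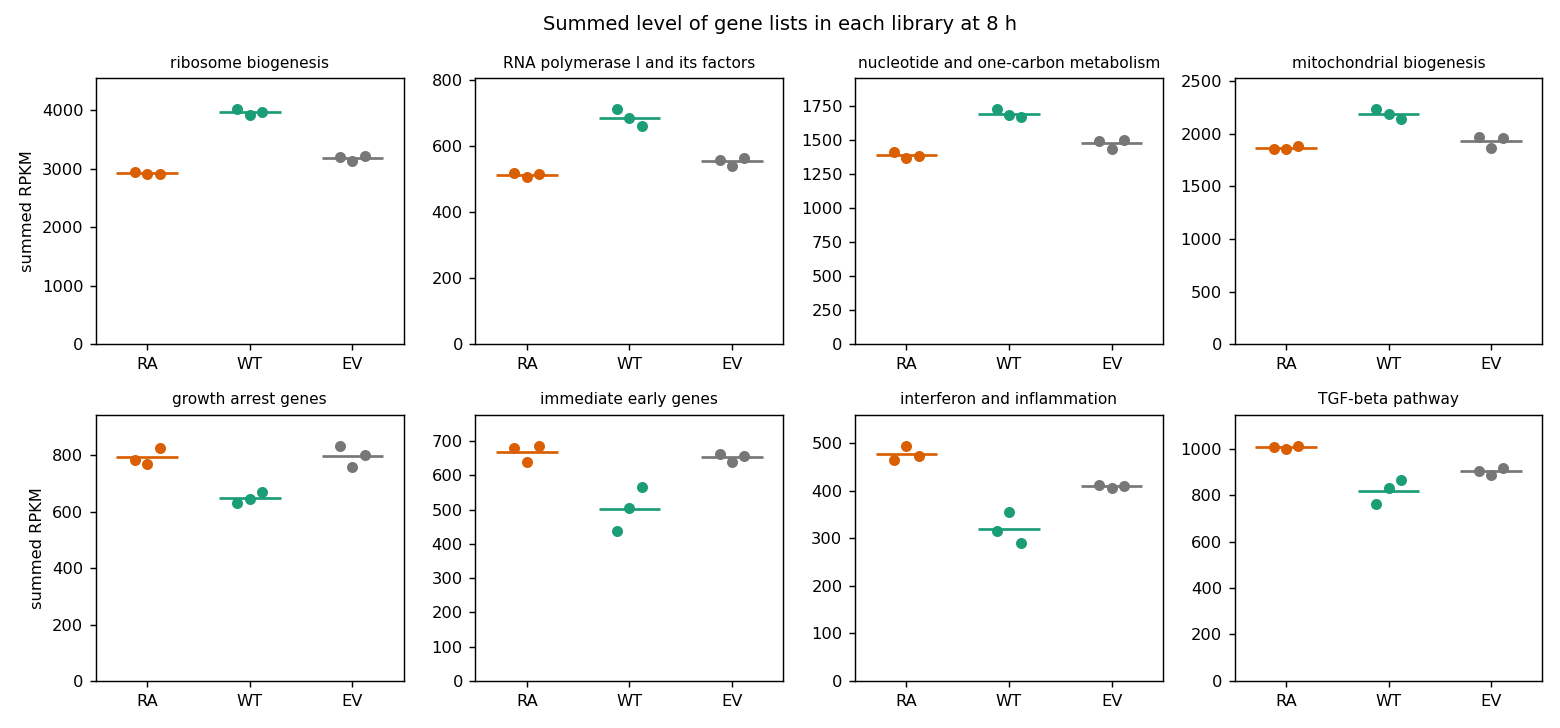
Each panel sums the RPKM of the tested members of a list in each library, with a point for each of the 3 libraries of RA, WT and EV at 8 h, a bar at the group mean, and an axis from 0. In the upper 4 lists RA lies below WT, and below EV except in mitochondrial biogenesis, where they overlap; in the lower 4 lists WT lies below both other groups.

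Clock genes differed in both directions. Of 15 tested 3 were lower (20.0%) and 6 higher (40.0%) in RA, or 5 lower with quantile normalisation. The lower share was near the 17.3% of all genes, and the higher share above the 24.4% of all genes. Nr1d1, also called Rev-erb alpha, a repressor of Arntl, had 8.02, 9.41 and 10.7 RPKM in RA, against 33.7, 29.4 and 32.9 RPKM in WT and 6.97 to 10.2 RPKM in EV (-1.73 ± 0.13, adjusted p = 4.32e-09). Arntl, the clock activator also called Bmal1, had 8.45, 8.34 and 8.25 RPKM in RA, against 1.36, 2.52 and 2.17 RPKM in WT and 8.34 to 9.02 RPKM in EV (1.84 ± 0.13, adjusted p = 1.90e-09). In both genes the RA libraries met the range of EV. Per2, a clock repressor, was above EV in RA and below it in WT, with 6.25 ± 0.27 RPKM in RA, 2.32 ± 0.46 RPKM in WT and 3.57 ± 0.32 RPKM in EV (1.27 ± 0.13, adjusted p = 1.42e-07). Bhlhe41, another repressor, fell by 1.58 ± 0.22 and averaged 0.810 ± 0.032 RPKM in RA and 3.53 ± 1.1 RPKM in WT. No RA or EV library at 8 h reached 1 RPKM in Bhlhe41, while all 3 WT libraries did.

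The most abundant genes that changed did so by little. The 5 highest of those lower in RA were Eif4a1, Npm1, Hsp90aa1, Snord95 and Impdh2, with log2 fold changes of -0.14, -0.19, -0.14, -0.25 and -0.17, and means of 116 to 136 RPKM in RA and 131 to 150 RPKM in WT. Npm1, the nucleolar chaperone nucleophosmin, had 127, 137 and 129 RPKM in RA, against 151, 153 and 143 RPKM in WT and 133 to 136 RPKM in EV (adjusted p = 0.00431). The 5 highest of those higher in RA were Thbs1, Cyr61, Cnn2, Spcs3 and Plk2, with log2 fold changes of 0.20, 0.17, 0.16, 0.18 and 0.16. Thbs1, a secreted matrix protein, had 160, 156 and 152 RPKM in RA, against 122, 137 and 149 RPKM in WT and 140 to 143 RPKM in EV (adjusted p = 0.0167), and its log2 fold change was 0.13 without WT replicate 1. That of Cyr61 was 0.11 without the same library. No gene averaged above 192 RPKM over the 6 libraries, and these 10 genes had 1.26 to 1.66 reads per base of gene. Reads per base reached 2.06 in all, no source used here says how duplicate reads were treated, and the part of such a ceiling in the small size of these differences was not tested. Of these 10 calls those of Npm1 and Impdh2 held under all 15 other settings. Snord95 is a small nucleolar RNA inside a host gene, so its reads may be shared with it.

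The difference between RA and WT was already present at 4 h for most genes that changed at 8 h, but list medians were not all alike. In ribosome biogenesis the median was -0.43 at 4 h and -0.45 at 8 h. It was 0.15 and 0.30 for growth arrest genes, 0.10 and 0.23 for extracellular matrix, and 0.03 and 0.38 for immediate early genes. Over all genes it was 0.05 and 0.04. The times were not compared by list in a test. Of the 2125 genes lower in RA at 8 h, 2097 (98.7%) were below WT at 4 h and 1554 (73.1%) passed there in the same direction, beside 15.0% of all genes lower at 4 h. Of the 2997 higher at 8 h, 2933 (97.9%) were above WT at 4 h and 1938 (64.7%) passed, beside 19.9% of all genes higher at 4 h. The 2 times share no library, but all libraries entered 1 fit. The check of spread between replicates covered 8 h only. At 4 h WT replicate 3 lay apart in some named genes, such as Myc (46.8, 46.9 and 29.0 RPKM in WT) and Rgcc (12.9, 13.5 and 23.2 RPKM). In others, such as Rrp1b (52.9, 52.0 and 51.2 RPKM), it did not, and its part in the comparison of times was not tested. The difference between the times was tested directly, and 8 genes (0.0652%) passed, all more strongly higher in RA at 8 h, with 790 genes at an unadjusted p under 0.05. The count depended on the setting: it was 0 with only the groups compared, 1 with voom, 1 without RA replicate 3 or without WT replicate 1, 2 without RA replicate 1, and 5 without RA replicate 2.

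Smad3, which carries the TGF-beta signal to the nucleus, had 46.7, 45.0 and 46.4 RPKM in RA, against 25.4, 24.9 and 27.5 RPKM in WT at 8 h. At 4 h it had 44.1, 46.6 and 47.8 RPKM in RA, against 41.0, 37.4 and 39.2 RPKM in WT. The RA libraries were level at both times and the WT libraries lower at 8 h, and the log2 fold change was larger at 8 h by 0.58 ± 0.078 (adjusted p = 0.00345). Mxd4 had 19.5, 18.3 and 17.3 RPKM in RA, against 20.7, 16.2 and 18.8 RPKM in WT at 4 h. Its log2 fold change was thus -0.01 at 4 h and 1.27 at 8 h, a difference of 1.28 ± 0.21 (adjusted p = 0.0204), with RA at a higher and WT at a lower level at 8 h. Foxs1 averaged 12.3 ± 0.65 RPKM in RA and 2.38 ± 0.85 RPKM in WT at 8 h, and 12.4 ± 1.1 RPKM in RA and 6.23 ± 1.1 RPKM in WT at 4 h.

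**Figure D5:**
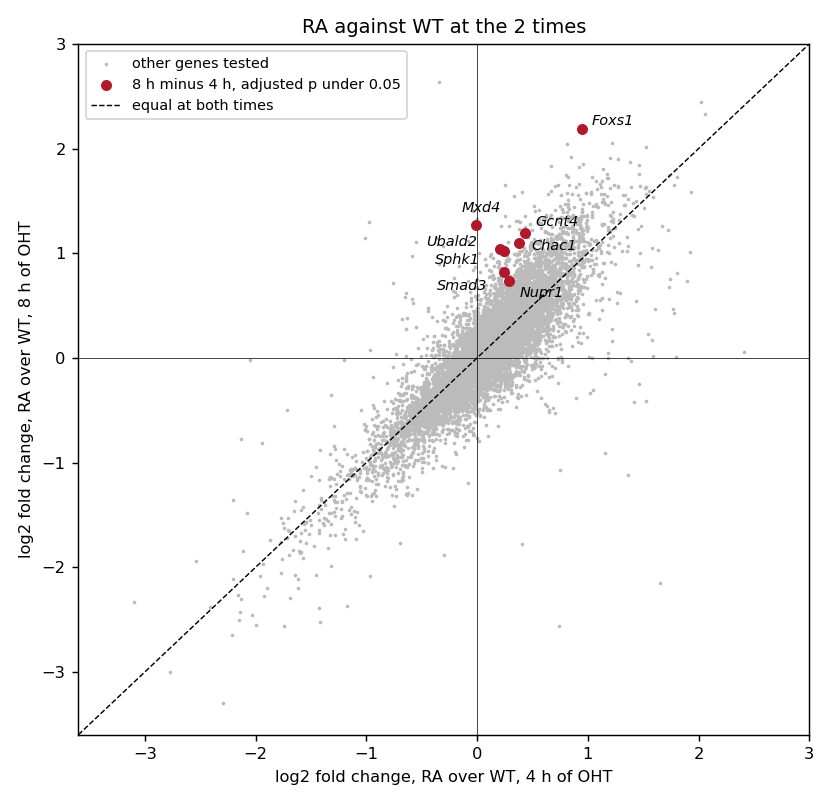
Each point is 1 of the 12268 genes tested, with its log2 fold change of RA over WT at 4 h on the x axis and at 8 h on the y axis, and the dashed line marks equal values. The 8 red genes passed the test of the difference between times and all lie above the line, Mxd4 at -0.01 on the x axis and 1.27 on the y axis.

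Markers checked the cells and their RNA. Of 11 fibroblast markers 9 were tested, with summed levels of 674 to 697 RPKM in RA, 589 to 693 RPKM in WT and 642 to 651 RPKM in EV. Lum was at 0 in all libraries compared and Thy1 and Dcn stayed below 1 RPKM, while Col1a1 and Vim had at least 119 RPKM in every library. Pdgfra (0.79), Pdgfrb (0.74) and Col1a2 (0.22), named after their values were seen, were higher in RA. Summed markers of epithelium were 0.602 to 1.08 RPKM in RA and 0.188 to 0.350 RPKM in WT, with Epcam and Cldn4 at 0. Those of macrophages were 19.2 to 21.3 RPKM in RA and 24 to 26.5 RPKM in WT, with Emr1 and Tyrobp at 0. Nearly all of the macrophage sum came from Cd68, Cd14 and Csf1r, and none of these 3 genes counted as changed. Cd68 had 8.82 to 11.8 RPKM in RA and 13.4 to 14.9 RPKM in WT. Cd14 reached 8.20 RPKM in RA and 11.3 RPKM in WT, and Csf1r reached 2.11 RPKM in RA and 1.60 RPKM in WT. Endothelial markers summed to 1.12 to 1.23 RPKM in RA and 1.82 to 2.97 RPKM in WT and muscle markers to 3.82 to 4.80 RPKM in RA and 2.42 to 4.13 RPKM in WT, with Myod1 at 0. Adipocyte markers summed to 3.95 to 6.76 RPKM in RA and 3.04 to 4.65 RPKM in WT, with Lep at 0. Most of this sum was Fabp4, with 3.65 to 6.29 RPKM in RA and 2.66 to 4.29 RPKM in WT. Among these lists Egfl7 of the endothelial markers was lower (-0.98 ± 0.18) and Acta1 of the muscle markers higher in RA (0.55 ± 0.16), both at mean levels under 4 RPKM and named after their values were seen. Of 6 nuclear and RNA quality transcripts 2 were lower in RA, Xist at -0.45 ± 0.095 and Kcnq1ot1 at -0.86 ± 0.26, and the list summed to 501 to 525 RPKM in RA and 502 to 558 RPKM in WT. Their part in the differences above was not tested.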

How the data were processed

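Total RNA of 3T9 cells was column-purified, treated with DNase and used for stranded total RNA libraries, per the labels' protocols. The submitters' processing notes name DESeq2, featureCounts 1.4.5-p1, SAMtools and TopHat2 2.0.8, in no order, and the mouse build mm9. No source used here gives the strand setting, the annotation or how duplicate reads were treated, so overlapping, antisense and near-identical genes could not be told apart. Per the file headers, the authors deposited RPKM for 21671 genes. A table of their own comparisons was not used.

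RPKM values are not counts, so limma-trend (limma 3.58.1, R 4.3.3) was run on log2(RPKM + 0.5), which understates changes of genes with low levels. All 24 libraries entered 1 fit of 8 group means (16 residual degrees of freedom), with the contrast of RA minus WT at 8 h and its difference from that at 4 h. The procedure was tested on simulated data. Other steps used Python 3.11.15, numpy 2.4.6, pandas 2.3.3 and matplotlib 3.10.9.

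From the RPKM steps whole reads were recovered, and 100% of 362673 nonzero values came within 0.01 of a whole number. Totals were 9.82 to 12.8 M reads per library, and a gene at 0 could hold up to 3 reads, 0.254 to 0.298 CPM in RA and WT, for counting error only. The labels number the libraries but name no separate cultures. The p-values therefore measure only the spread between these libraries, which could be technical. Replicate numbers did not pair RA with WT (correlation of deviations -0.19, 0.27 and -0.09).

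The groups compared and the gene lists were chosen with earlier results of these data known. Named genes were the 12 largest falls and rises past 0.05 (mean of at least 1 RPKM, no overlap of libraries, leaving out predicted genes and families of many copies), the 5 most abundant changed genes in each direction, the 3 genes of smallest p in each list and up to 2 against its majority, the changed Myc/Max network genes, and the 5 of smallest p between times. One gene that this rule names is not reported here. Among list symbols, 774 of 777 were matched. Alternatives were other pseudocounts, no filter, median centring, quantile normalisation, only the groups compared, no variance trend, a replicate block, voom on recovered reads and leaving out each RA and WT library at 8 h.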

Additional observations from a re-analysis of the deposited data

Results flagged for a closer look

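The difference between RA and WT was larger at 8 h than at 4 h in 8 genes by the test of that difference (limma, adjusted over 12268 genes), in each because RA stood further above WT at 8 h. The log2 differences were 1.28 ± 0.21 for Mxd4, 0.83 ± 0.14 for Ubald2 and 0.79 ± 0.13 for Sphk1, which makes sphingosine phosphate (adjusted p = 0.0204 each). Smad3 had 0.58 ± 0.078 (adjusted p = 0.00345), Foxs1 1.24 ± 0.23, Gcnt4 0.76 ± 0.14 and Nupr1 0.45 ± 0.081 (adjusted p = 0.0403 each), and Chac1 0.72 ± 0.13 (adjusted p = 0.0448). Gcnt4, Foxs1 and Chac1 are given with the rest because all genes that passed are listed. Ubald2 had 18.6, 19.6 and 22.4 RPKM in RA, against 8.71, 9.69 and 10.2 RPKM in WT at 8 h, and 15.7 to 17.6 RPKM in RA, against 12.9 to 16 RPKM in WT at 4 h. Gcnt4, a glycosyltransferase, had 17.9, 17.5 and 17.5 RPKM in RA, against 7.05, 7.93 and 7.43 RPKM in WT at 8 h, and 18.7 to 20.9 RPKM in RA, against 14.1 to 16 RPKM in WT at 4 h. All 3 RA libraries lay above all 3 WT libraries at 8 h in each of the 8 genes. The calls depended on the setting: Smad3 was lost under 1 of 15 other settings (only the groups compared, adjusted p = 0.125), and Nupr1 under 11.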

How the results depend on the processing

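Under the 15 other settings the counts of 5122 changed, 2125 lower and 2997 higher genes stayed within 1.5 times, and all named genes that changed kept their direction. The share of higher genes among all changed genes was 51.1% with median centring and 52.1% with quantile normalisation, against 58.5%. Of 135 named genes that changed, 114 passed under every setting and 21 were lost under at least 1. The 8 genes that differed between times became 0 with only the groups compared, 4 without the variance trend, 5 with the replicate block and 1 with voom. They became 1 to 6 with an RA or WT library at 8 h left out, and no library at 4 h was left out. The replicate block fits a number that does not pair the samples; among the named genes it cost Mnt its call (adjusted p = 0.0527). The edgeR test foreseen for recovered reads was not run, because the deposited unit is RPKM. At least 2-fold lower and higher were 247 and 387 genes, 309 and 618 with voom, 300 and 571 with a pseudocount of 0.1, 188 and 250 with a pseudocount of 1, and 317 and 237 with quantile normalisation, where falls outnumbered rises. Quantile normalisation reduced Eif4a1 and Hsp90aa1 to -0.09 and Npm1 to -0.12, and Ppargc1b was -3.18 with a pseudocount of 0.1, as was Slc38a3 at -3.61. Genes of few reads and those above 1 read per base are the least certain in size, and the causes of these shifts were not tested.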
